A study of Mus musculus with 4 samples.

Results

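Lipid- and scar-associated macrophage genes are described here, 10 of the 29247 genes in the table: Gpnmb, Spp1, Trem2, Tyrobp, Cd63, Cd9, Fabp5, Lgals3, Lpl and Plin2. They were chosen by name, with their values in this contrast already known, so the differences between the acetaminophen (APAP) and control macrophages are given as a description with no test. All 10 passed the filter on low counts that left 18715 genes. RNA sequencing was applied to macrophages that flow cytometry had sorted from the liver of C57BL6J mice at 8 weeks of age. The treated group held 3 libraries of Cxcr4+ macrophages from mice killed 72 h after an intraperitoneal dose of APAP of 300 mg/kg in saline, and the comparison group held 1 library of control macrophages. The labels give neither the gate of the control nor the number of animals behind a library, so APAP and the Cxcr4 sort cannot be told apart, and the spread between the 3 APAP libraries may be technical. These columns carry no replicate number and are called the first, the second and the third APAP library in the order of the table.

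Macrophages that clear dead cells and lipoproteins take up large amounts of lipid. In fatty tissue, atherosclerotic plaque and scarred liver such cells are known as lipid-associated or scar-associated macrophages. Their best known sensor is Trem2, a surface receptor for lipids and cell debris that has no signalling tail of its own and signals through the adaptor Tyrobp (DAP12). The other genes of the set cover secreted and adhesive proteins (Gpnmb, Spp1, Lgals3), tetraspanins of the endosome and cell surface (Cd63, Cd9), and lipid handling (Lpl, Fabp5, Plin2). Acetaminophen at high doses kills hepatocytes, and the dead tissue is then cleared by resident and recruited macrophages.

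The sequence before the start site was available for 7 of the 10 genes, from RefSeq on build GRCm38.p6. Those of Gpnmb and Spp1 are shown because these genes differed most between the groups, and that of Trem2 because it is the receptor of the set. Each is the 250 bases before the annotated start, 5′ to 3′ on the strand of the gene. All 3 genes lie on the plus strand, and Spp1 has another annotated start further downstream, whose window is not shown. Bases shortly after the Gpnmb start were not found in any GENCODE M21 transcript of Gpnmb, while those after the other starts of the set were found in transcripts of their genes. The Gpnmb window and the positions counted from its start thus rest on RefSeq alone. Capitals mark matches to AACCACA (Runx factors), GAGGAAGT (PU.1) or TGANTCA, searched on both strands. TGANTCA is a loose form of the AP-1 site in which N stands for any base, and the match of Trem2 reads TGAATCA.

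Gpnmb, chr6:49036268-49036517: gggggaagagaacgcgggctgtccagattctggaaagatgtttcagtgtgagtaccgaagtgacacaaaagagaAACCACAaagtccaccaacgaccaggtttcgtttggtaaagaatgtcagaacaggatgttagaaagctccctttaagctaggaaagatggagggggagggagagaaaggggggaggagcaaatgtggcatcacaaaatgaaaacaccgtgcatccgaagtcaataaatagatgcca

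Spp1, chr5:104434861-104435110: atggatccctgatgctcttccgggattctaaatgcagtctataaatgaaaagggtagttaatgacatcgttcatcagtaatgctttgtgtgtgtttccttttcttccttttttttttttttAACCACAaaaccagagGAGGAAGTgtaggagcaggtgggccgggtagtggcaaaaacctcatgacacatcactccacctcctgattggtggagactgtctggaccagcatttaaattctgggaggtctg

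Trem2, chr17:48346151-48346400: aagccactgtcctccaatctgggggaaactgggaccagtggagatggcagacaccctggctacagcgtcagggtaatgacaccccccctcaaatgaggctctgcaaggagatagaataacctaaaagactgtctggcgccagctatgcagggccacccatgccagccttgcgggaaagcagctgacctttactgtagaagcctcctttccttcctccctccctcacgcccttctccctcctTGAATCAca

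Across all 32851 annotated start-site windows of 300 bases (250 before the start and 50 from it on), 5.27% held AACCACA, 3.20% GAGGAAGT and 7.81% TGANTCA. Of the 8 windows of the set, 2 held AACCACA (Gpnmb and Spp1), 1 held GAGGAAGT (Spp1) and 2 held TGANTCA (Trem2 and Gpnmb). The TGANTCA match of Gpnmb lies after the start, at positions 9 to 15, and Plin2 alone of the 8 held the E-box CACGTG, across its start (7.15% of all windows). Both short stretches are shown with 10 bases on either side.

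Gpnmb, chr6:49036516-49036542, plus strand: caggggcaagTGACTCAtgagcacgag

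Plin2, chr4:86670048-86670073, minus strand: gctgggctatCACGTGgctcggaggc

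The direct repeats bound by PPAR with RXR and by LXR with RXR had 0 matches in the 8 windows, and 0.0396% and 0.0152% of all windows held them. These motifs were chosen with the sequences in view, none overlaps another here, and a match describes letters and no binding.

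Total counts were 48282283 to 56702837 after APAP and 49950909 in the control. Genes with any counts numbered 23376 to 23880 after APAP but 18793 in the control. The part of this difference in the values below, above all for genes near 0 in the control, was not tested. Levels are given in CPM, counts scaled to the library size after TMM adjustment, whose factors were 1.03 to 1.04 after APAP and 0.90 in the control. The macrophage markers Adgre1, Csf1r, Cd68, Mertk, Fcgr1, Lyz2, Ptprc and Itgam were all above 1 CPM in every library. Their summed level was 16374 to 18975 CPM after APAP and 18889 CPM in the control. Adgre1, Csf1r, Cd68 and Fcgr1 were lower in every APAP library than in the control, and Mertk, Lyz2, Ptprc and Itgam were higher. Other cell types can express members of the set. The summed level of 8 bile duct cell markers was 4.30 to 5.60 CPM after APAP and 6.59 CPM in the control, with Cftr at 0 throughout and Krt19 below 0.5 CPM in each library. Of 8 adipocyte markers, 7 were in the table, with a sum of 24.2, 9.66 and 11.02 CPM and 6.96 CPM in the control, nearly all from Fabp4, and Adipoq was at 0 throughout. Neutrophil markers summed to 160, 107 and 59.4 CPM after APAP and 45.8 CPM in the control. Most of that control sum was Mmp9, with 40.2 CPM in the control and 51.4, 38.1 and 24.6 CPM after APAP. Each of the other neutrophil markers was higher in every APAP library than in the control, such as S100a8 (24.0, 12.5 and 4.69 CPM against 2.51 CPM). B cell markers summed to 390 to 585 against 69.6 CPM and hepatocyte markers to 239 to 408 against 820 CPM. The part of these cells in the values below was not tested. In sorted pools, more cells expressing a gene and more RNA per cell cannot be told apart.

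The 10 genes differed widely in direction and size. By the mean of the APAP libraries, 6 stood at 5.05 to 2033 times the control and Lpl at 1.89 times. Lgals3 and Plin2 lay near or across the control, and Tyrobp was lower. All 3 APAP libraries were above the control for 8 members and below it for 1. Over all genes tested, these shares were 45.7% and 39.2%, and since the members were chosen on this contrast, nothing is read from the comparison. The median log2 fold change fitted by edgeR was 2.41 over the 10 members and 0.08 over all genes tested.

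**Figure D1:**
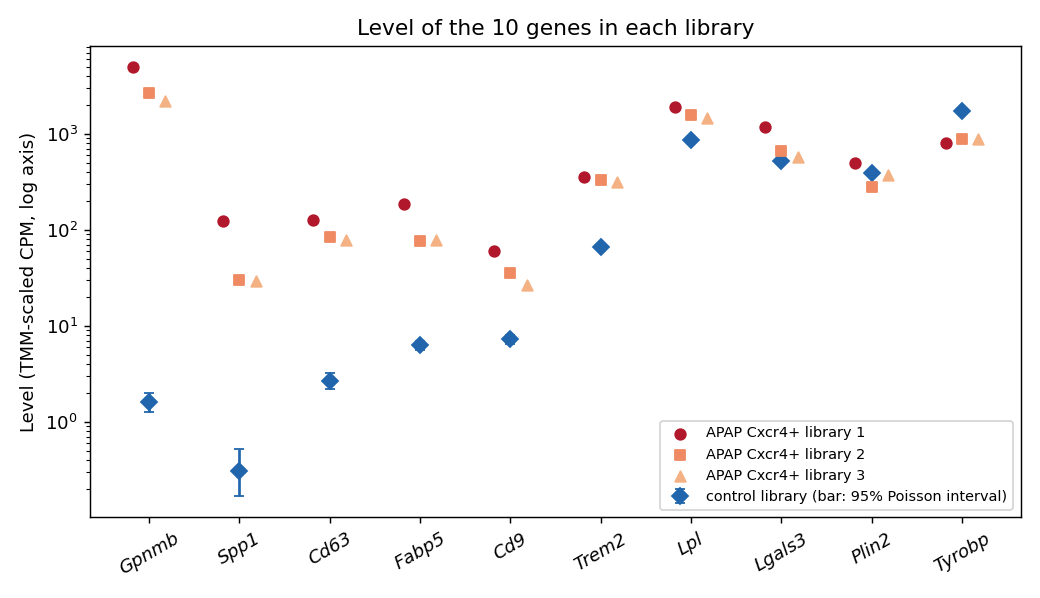
Level of each gene in CPM (TMM-scaled, log axis) in the 3 APAP Cxcr4+ libraries (red to orange symbols) and the control library (blue diamond, with the 95% Poisson interval of its count), genes ordered by the ratio of the APAP mean to the control. Gpnmb and Spp1 lie farthest from the control, Plin2 straddles it and Tyrobp lies below it.

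Gpnmb (ENSMUSG00000029816) encodes a transmembrane glycoprotein of endosomes and lysosomes that is also shed from the cell surface. Its levels were 4908, 2671 and 2195 CPM after APAP and 1.60 CPM in the control (72 counts, 95% exact Poisson interval 1.25 to 2.02 CPM, for counting error only). The APAP mean of 3258 ± 1448 CPM (SD, n = 3) was 2033 times the control, or 1615 to 2599 times within the counting interval. Gpnmb took 0.511%, 0.276% and 0.227% of all counts in the APAP libraries, and ranked 12, 23 and 30 among the genes tested when ordered by CPM, against 12176 in the control. All 3 APAP libraries were far above the control, and the first was 2.24 times the third.

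Spp1 (ENSMUSG00000029304) encodes osteopontin, a secreted matrix protein that binds integrins and Cd44. It had 122, 30.1 and 29.3 CPM after APAP and 0.312 CPM in the control, where it rested on 14 counts (0.170 to 0.523 CPM). The first APAP library held about 4 times the level of the others, and the coefficient of variation (SD over mean) of 88.4% was the highest of the set. Against the control, the ratio was 393 in the first library, 96.6 in the second and 93.9 in the third. Although both genes were close to 0 in the control, Gpnmb had 40.1, 88.8 and 75.0 times the CPM of Spp1 in the APAP libraries.

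Lgals3 (ENSMUSG00000050335) encodes galectin-3, a sugar-binding protein of the cytosol and the cell exterior that marks damaged lysosomes. Its levels were 1188, 665 and 578 CPM after APAP and 521 CPM in the control. Only the first library stood apart, at 2.28 times the control, and the second and the third were at 1.28 and 1.11 times. The fitted log2 fold change was 0.64, and 0.25 without the first APAP library.

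Trem2 (ENSMUSG00000023992) had 357, 330 and 312 CPM after APAP and 66.0 CPM in the control. The 3 APAP libraries lay close together (333 ± 22.6 CPM, SD, n = 3), at 4.74 to 5.41 times the control. Tyrobp (ENSMUSG00000030579), its adaptor, went the other way, with 793, 888 and 873 CPM against 1731 CPM, which is 0.46 to 0.51 times the control. Its fitted log2 fold change was -1.02, and only -0.27 once a trend of fold change with transcript length was removed. That trend (Spearman's rho 0.345 between log2 fold change and transcript length across 14256 genes, which are not independent replicates) moves Tyrobp most, which at 564 bases has the shortest transcript of the set. Per kilobase of transcript, Tyrobp stood at 50.6 times Trem2 in the control and at 4.28, 5.19 and 5.39 times in the APAP libraries. The adaptor was thus the more abundant transcript in all 4 libraries, and the gap between the pair was narrower in the 3 APAP libraries.

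**Figure D2:**
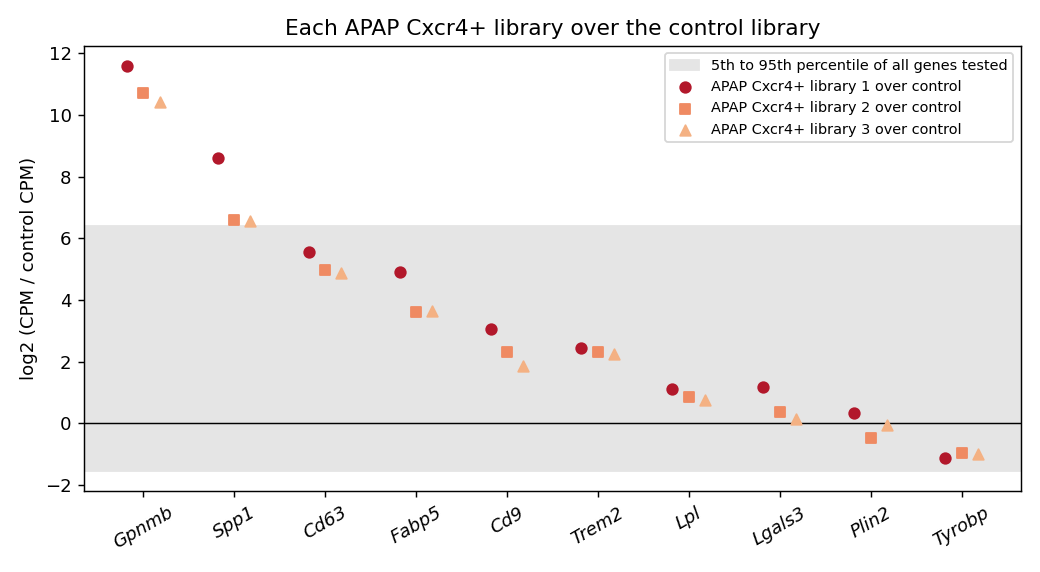
Log2 ratio of each APAP Cxcr4+ library to the control library for the 10 genes, one symbol per APAP library. The grey band runs from the 5th to the 95th percentile of the fitted log2 fold changes of all genes tested (-1.54 to 6.40). Gpnmb and Spp1 lie above the band in all 3 libraries, and the other 8 genes lie within it.

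Cd63 (ENSMUSG00000025351) and Cd9 (ENSMUSG00000030342) encode tetraspanins, small membrane proteins that organise partners in the plane of the membrane. Cd63 is known from late endosomes and exosomes and Cd9 from the cell surface. Cd63 had 125, 83.4 and 78.2 CPM after APAP and 2.67 CPM in the control (120 counts), with ratios of 46.8, 31.2 and 29.3. A row named Cd63-ps, for a pseudogene, had 765, 493 and 499 counts after APAP and 24 in the control, equal to 10.9% to 12.2% and 20% of the Cd63 counts. The handling of reads shared by such copies is not given in the sources used here, so the level of Cd63 is uncertain by about that share. Cd9 had 60.2, 35.8 and 26.4 CPM against 7.28 CPM in the control, or 8.28, 4.91 and 3.63 times. Both tetraspanins were highest in the first APAP library, and neither overlapped the control.

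The lipid-handling genes differed among themselves. Fabp5 (ENSMUSG00000027533), a cytosolic carrier of fatty acids, had 187, 77.1 and 78.3 CPM after APAP and 6.25 CPM in the control. Its ratio to the control was 29.8 in the first library and 12.3 and 12.5 in the others. The near copy Fabp5l2 had 0 to 5 counts in each library. Lpl (ENSMUSG00000015568), the lipase that frees fatty acids from lipoproteins, was already abundant in the control at 870 CPM. It had 1882, 1575 and 1473 CPM in the APAP libraries, 1.69 to 2.16 times the control. Plin2 (ENSMUSG00000028494), which coats lipid droplets, had 492, 282 and 376 CPM against 388 CPM in the control. The first library was above the control, the third close to it and the second below, and the mean of 383 ± 105 CPM (SD, n = 3) was 0.99 times the control. Its fitted log2 fold change of -0.02 changed sign between alternatives.

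Levels per kilobase of transcript (GENCODE M21, from build GRCm38, so lengths only) allow the genes to be set in order. In the control the order was Tyrobp (3069 CPM per kb), Lgals3 (367), Lpl (211), Plin2 (205), Trem2 (60.6), Fabp5 (6.34), Cd9 (5.93), Cd63 (2.41), Gpnmb (0.433) and Spp1 (0.207). In the APAP libraries the means ran from Tyrobp (1510 ± 90.2 CPM per kb, SD, n = 3) through Gpnmb (880 ± 391), Lgals3 (571 ± 233), Lpl (399 ± 51.7), Trem2 (306 ± 20.8), Plin2 (203 ± 55.7), Fabp5 (115 ± 63.7), Cd63 (86.2 ± 23.2) and Spp1 (40.2 ± 35.5) to Cd9 (33.2 ± 14.2). Gpnmb was at place 9 of 10 in the control and at place 2 in the APAP group. In the APAP group the ranges of Tyrobp and Gpnmb did not overlap, nor did those of Lpl and Trem2 or of Trem2 and Plin2. Gpnmb overlapped Lgals3, Lgals3 overlapped Lpl, and Plin2, Fabp5, Cd63, Spp1 and Cd9 each overlapped their neighbour in the order. The summed level of the 10 genes was 10114, 6636 and 6019 CPM after APAP and 3594 CPM in the control. Without Gpnmb it was 5206, 3966 and 3824 CPM against 3592 CPM.

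Another pattern lay within the APAP group, between its libraries. The 10 genes were chosen on a contrast that uses the levels of these same libraries. The shares over all genes are therefore given beside theirs as a description, and nothing is read from the comparison. For 9 of the 10 genes the first APAP library was the highest, where 36.9% of all genes tested had their highest APAP value there. The exception was Tyrobp, which was lowest in it. The first library was at least 1.5 times the mean of the other two for 6 genes, Spp1 (4.12), Fabp5 (2.40), Gpnmb (2.02), Cd9 (1.94), Lgals3 (1.91) and Cd63 (1.55), against 8.76% of all genes tested. Plin2 followed at 1.496, just below that mark, with Lpl at 1.23, Trem2 at 1.11 and Tyrobp at 0.90. The median of this ratio was 1.73 over the 10 genes and 0.99 over all genes tested. These are single libraries, and the genes share them, so no test was made. The sum of the neutrophil markers was also highest in the first library (160 CPM against 107 and 59.4 CPM), though Retnlg was lowest there. The sum of the macrophage markers was lowest in it (16374 CPM against 18541 and 18975 CPM), though Cd68 was highest (1377 CPM against 1142 and 1107 CPM). The part of these cells in the pattern was not tested. Coefficients of variation among the APAP libraries ran from 5.98% for Tyrobp, 6.78% for Trem2 and 13.0% for Lpl to 55.2% for Fabp5 and 88.4% for Spp1, against a median of 12.1% over all genes tested. Without the first APAP library, the fitted log2 fold change was 10.57 for Gpnmb (10.99 with it), 6.56 for Spp1 (7.59), 4.92 for Cd63 (5.16), 3.63 for Fabp5 (4.19), 2.09 for Cd9 (2.49) and 2.28 for Trem2 (2.34).

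**Figure D3:**
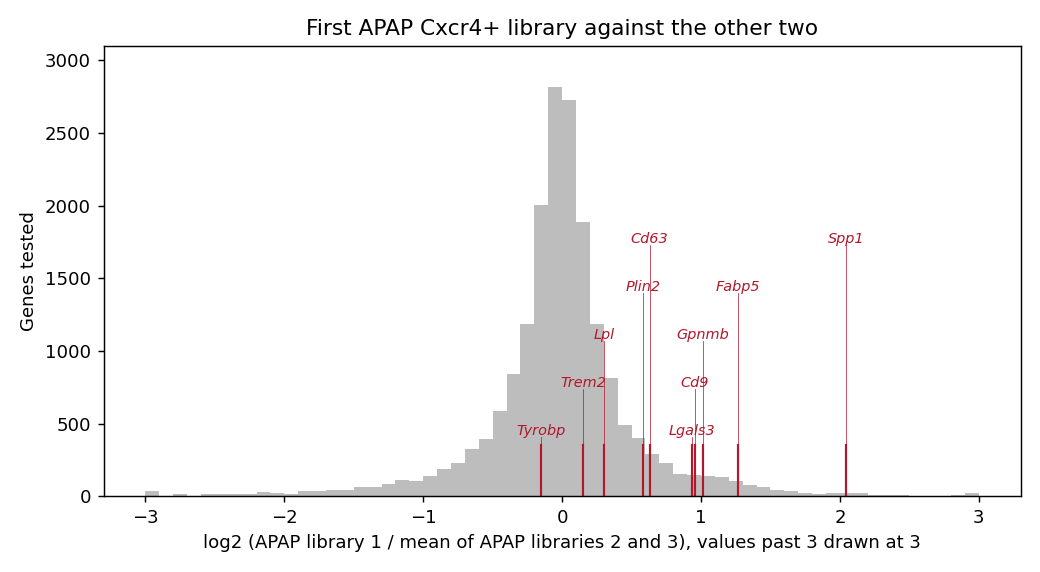
Distribution over all genes tested of the log2 ratio of the first APAP Cxcr4+ library to the mean of the second and the third (grey bars, number of genes in each bin of 0.1), with the 10 genes marked in red. Tyrobp alone lies left of 0, and Spp1 lies farthest right at a ratio of 4.12.

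The genes whose profile over the 4 libraries was most like that of Gpnmb or Spp1 were looked for among 8741 others. These had a log2 of the average CPM, as edgeR gives it, of 3 or more, and no predicted, clone or pseudogene name. Likeness was the root mean square difference of centred log2(CPM + 0.5) values. Spp1 was closest to Emp1, a membrane protein (0.24), followed by Mmp8 (0.46), the metalloprotease Adam8 (0.62), Cd93 (0.64) and Chil3 (0.69). Mmp8, a neutrophil collagenase, is among the neutrophil markers whose sum is given above, and had 42.7, 22.1 and 15.7 CPM after APAP and 0.134 CPM in the control. The part of neutrophil RNA in the level of Spp1 was not tested. Emp1 had 63.7, 23.8 and 22.5 CPM after APAP and 0.0890 CPM in the control. Gpnmb had no close neighbour. The nearest were Myo5a (1.69), Chil3 (1.73), Spp1 (2.04), Emp1 (2.04) and Cd93 (2.05). These distances rest on 4 libraries, of which 1 is the control, and carry no test.

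Other genes of the same pathways were taken from 9 lists of 115 genes, none of them members, and were tested with edgeR's quasi-likelihood test with Benjamini-Hochberg adjustment over all genes. Of the 108 genes tested, 42 (38.9%) were called higher and 15 (13.9%) lower in APAP Cxcr4+ macrophages at an adjusted p of 0.05. Over all genes tested these shares were 25.4% and 18.9%. The lists were chosen with earlier results of these data known, so nothing is read from the comparison of shares. The median log2 fold change of the 108 was 0.13, and the changes given below for single genes are on the log2 scale. The test has 1 control library, which is assumed to vary like the APAP libraries. With raw library sizes in place of TMM, the median over all genes moved by 0.20 and the calls became 6072 higher and 2343 lower, from 4758 and 3537, and 48 and 11 of the pathway genes.

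In the list of Trem2 and Tyrobp signalling, 5 of 10 genes rose and 0 fell (median log2 fold change 0.27). The kinase Syk, which is recruited by phosphorylated Tyrobp, rose by 0.43 (SE 0.10, edgeR adjusted p = 0.0206), and Adam10, a protease that sheds Trem2, by 0.47 (SE 0.10). The adaptors Lat2 and Card9 rose by 4.87 (SE 0.43) and 0.79 (SE 0.13), and the phosphatase Inpp5d, a brake on this pathway, by 0.32 (SE 0.10). Lat2 was near 0 in the control, at 0.534 CPM (24 counts), with 20.2, 14.5 and 12.3 CPM after APAP. Without the second APAP library only 2 were called, with edgeR adjusted p of 0.0882 for Syk, 0.0767 for Adam10 and 0.175 for Inpp5d, and with the length trend removed 2 were called. Plcg2, Vav1 and Btk stood at 0.05, -0.10 and 0.04.

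The list of other Tyrobp-coupled receptors, which also holds the adaptor Hcst, had 4 of 10 genes higher and 4, Hcst among them, lower (median 0.34, and -0.25 without the first APAP library). Sirpb1a rose by 2.23 (SE 0.19), Clec5a by 1.89 (SE 0.38) and Sirpb1b by 1.35 (SE 0.17). Siglech, known from plasmacytoid dendritic cells, had 0 counts in the control and 18.05, 13.2 and 23.5 CPM after APAP, which is at least 273-fold higher against a floor of 3 counts in the control. Lower were Treml4 (-1.15, SE 0.10), Pilrb1 (-2.04, SE 0.23), Pilrb2 (-1.93, SE 0.22) and Hcst (-1.71, SE 0.18), an adaptor that serves in place of Tyrobp for some receptors. Sirpb1a and Sirpb1b, and Pilrb1 and Pilrb2, are pairs of near relatives, so the division of reads between them is uncertain. Trem1 and Trem3, at 0.64 and 0.05, did not pass.

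Receptors that bind osteopontin or Gpnmb had 5 of 10 higher and 1 lower (median 0.28). The integrin chains Itga4, Itgav, Itgb3 and Itga5 rose by 2.16 (SE 0.15), 1.24 (SE 0.11), 1.56 (SE 0.27) and 0.61 (SE 0.12), and Itga8 by 1.14 (SE 0.29, edgeR adjusted p = 0.0252, and 0.0760 without the second APAP library). The syndecan Sdc4, a partner of Gpnmb, fell by 0.58 (SE 0.18, edgeR adjusted p = 0.0476). Without the second APAP library it was not called (edgeR adjusted p = 0.126), nor with raw library sizes (0.144), and 2 fell without the first. Cd44, a receptor of both, was abundant in every library (761 to 829 CPM against 820 CPM) at a log2 fold change of -0.06 (SE 0.11).

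Among 8 partners of Cd9 and Cd63, 4 were higher and 2 lower (median 0.14). The integrin chain Itga6 rose from 3.05 to 126, 98.0 and 104 CPM (5.16, SE 0.23) and Ptgfrn, which binds Cd9 directly, by 3.80 (SE 0.42), while its relative Igsf8 (-0.59, SE 0.09) and Hbegf (-1.49, SE 0.23) fell. Ptgfrn had 0.623 CPM in the control (28 counts) and 10.1, 9.77 and 6.30 CPM after APAP. Timp1, a ligand of Cd63, was below 0.5 CPM in every library, with 0 counts in the control. Pdcd6ip, called at 0.31 (SE 0.09, edgeR adjusted p = 0.0365), was lost without the second APAP library (0.148) or the third (0.0748), and stood at -0.09 with the length trend removed. The galectin list had 6 genes tested, 5 other galectins and Lgals3bp, a glycoprotein that binds galectin-3, with 3 higher and 1 lower. Lgals1 rose by 3.87 (SE 0.67), with 233, 106 and 93.2 CPM against 9.88 CPM, Lgals4 by 1.92 (SE 0.32) and Lgals8 by 0.27 (SE 0.08, edgeR adjusted p = 0.0466, and 0.165 without the second APAP library). Neither DESeq2 nor limma-voom called Lgals8 (adjusted p = 0.0605 and 0.0572). Lgals9 fell by 0.78 (SE 0.09). Lgals3bp stood at -0.34 (SE 0.12), and without the first APAP library it was called lower as well (edgeR adjusted p = 0.0437).

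Lipid droplet genes had few calls, and of 15 tested, 0 rose and 1 fell (median -0.31). The one that fell was Hilpda, an inhibitor of droplet lipolysis (-1.20, SE 0.13, edgeR adjusted p = 0.0021), and 4 fell without the third APAP library and 2 without the first. At an unadjusted p under 0.05, 0 were higher and 4 lower, and both DESeq2 and limma-voom called 0 higher. With raw library sizes 2 were called higher. Plin3, the coat protein expressed most widely, stood at 0.21 (SE 0.17), the triglyceride lipase Pnpla2 at -0.33 (SE 0.16) and Soat1, which esterifies cholesterol, at 0.11 (SE 0.09). Plin1, Plin5, Cideb and Cidec were below 1 CPM in every library.

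**Figure D4:**
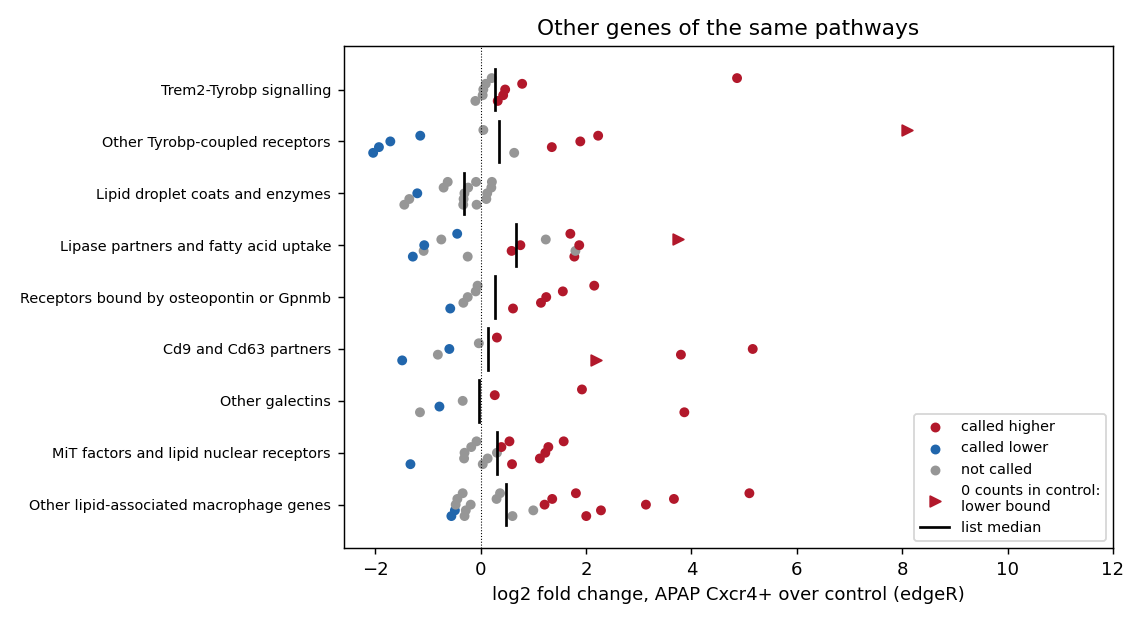
Fitted log2 fold change of APAP Cxcr4+ over control for 108 genes of 9 pathway lists, coloured by call (edgeR adjusted p of 0.05), with a vertical bar at the median of each list. Triangles are lower bounds for the 3 genes with 0 counts in the control. The lipid droplet list has 0 genes called higher of 15, and the Tyrobp-coupled receptors lie on both sides of 0.

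Genes of lipase function and fatty acid uptake had 6 of 14 higher and 3 lower (median 0.67). The scavenger receptor Cd36 rose from 172 to 834, 567 and 490 CPM (1.87, SE 0.33), the fatty acid transporter Slc27a1 by 1.78 (SE 0.17), the lysosomal acid lipase Lipa by 0.59 (SE 0.14) and Sel1l, which Lpl needs to leave the endoplasmic reticulum, by 0.75 (SE 0.12). Lipa was not called without the second APAP library (edgeR adjusted p = 0.0664), nor Sel1l with the length trend removed (0.0873). Angptl4, an inhibitor of Lpl, rose by 1.70 (SE 0.50, edgeR adjusted p = 0.0372, and 0.0974 with limma-voom). Of the relatives of Fabp5, Fabp7 fell by 1.29 (SE 0.09) and Fabp4 stood at 1.24 (SE 0.57) without passing. Fabp3 had 0 counts in the control and 1.81, 0.298 and 0.580 CPM in the APAP libraries (edgeR adjusted p = 0.0432, and 0.123 with limma-voom). Gpihbp1, the endothelial anchor of Lpl, fell by 1.07 (SE 0.21, and -0.31 with the length trend removed, edgeR adjusted p = 0.303). The transporter Slc27a4 fell by 0.45 (SE 0.10, edgeR adjusted p = 0.0147, and 0.0561 without the second APAP library). Without the third APAP library 5 of these genes fell. Lmf1, which folds Lpl, stood at -0.25 (SE 0.11).

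Among MiT transcription factors, their regulators and lipid-sensing nuclear receptors, 7 of 15 rose and 1 fell (median 0.31). Mitf, a MiT factor known to drive Gpnmb in pigment cells, rose by 0.55 (SE 0.12, edgeR adjusted p = 0.0137, and 0.0612 without the second APAP library, where 4 of the 15 rose), and Tfeb, Tfe3 and Tfec stood at 0.31, 0.04 and -0.31. Fnip1 and Fnip2, partners of folliculin in holding MiT factors in the cytosol, rose by 1.12 (SE 0.15) and 1.58 (SE 0.41). Folliculin (Flcn) rose by 0.39 (SE 0.11) and Rragd by 1.28 (SE 0.28), the latter at 3.38, 2.72 and 3.02 CPM against 1.25 CPM (56 counts). The lipid-sensing receptor Pparg rose by 1.23 (SE 0.17) and Ppard by 0.60 (SE 0.14). Nr1h3, the liver X receptor alpha, fell from 818 to 258, 331 and 386 CPM (-1.33, SE 0.20), and without the first or the third APAP library 2 of the list fell.

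The last list held other genes known from lipid-associated macrophages, of which 8 of 20 rose and 2 fell (median 0.49). The proton pump subunit Atp6v0d2 rose by 5.10 (SE 0.47), the macrophage elastase Mmp12 by 3.67 (SE 0.80), the proton channel Hvcn1 by 3.14 (SE 0.23) and Itgax, an integrin chain, by 2.28 (SE 0.13). Cst7, Colec12, Mmp14 and Clec7a rose by 2.0 (SE 0.44), 1.81 (SE 0.13), 1.36 (SE 0.20) and 1.21 (SE 0.11). Atp6v0d2 had 0.757 CPM in the control (34 counts) and 35.1, 21.1 and 21.9 CPM after APAP. Cst7 was low in every library, with 0.467 CPM in the control (21 counts) and 1.69, 2.42 and 1.54 CPM after APAP. Cd68 (-0.56, SE 0.15) and the cathepsin Ctsl (-0.49, SE 0.09) fell. Neither was called without the second APAP library or with raw library sizes, and Cd68 stood at 0.04 with the length trend removed. Without the first APAP library 11 rose and 5 fell. Apoe, the lipid carrier, was the most abundant gene of the list, with 27305, 30510 and 34110 CPM after APAP and 37256 CPM in the control (-0.28, SE 0.19), and Axl, Igf1 and Ctsb, at -0.31, 0.30 and -0.19, did not pass either.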

How the data were processed

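Gene counts were used as the authors deposited them, as raw counts for 29247 gene IDs in 4 libraries. The submitters' processing notes name HISAT2, Subread and build mm39, with no settings that the sources used here give. Symbols were found for 28926 IDs (98.9%). The 3 APAP libraries were compared with the single control by edgeR 4.0.16 in R 4.3.3 (quasi-likelihood test, TMM factors, filterByExpr with a minimum count of 10 and a total of 15). Benjamini-Hochberg adjustment ran over the 18715 genes tested, with calls at 0.05. Each SE was derived from that test, as the absolute log2 fold change divided by the square root of its F statistic. The spread between libraries was estimated from the 3 APAP libraries, on 2 residual degrees of freedom. The quasi-likelihood test joined these with a prior of 3.8 degrees of freedom drawn from all genes. The edgeR p-values rest on that spread alone, and variation between controls could not be seen. The fit was tested on simulated counts in which the control varied like the APAP libraries. That test therefore cannot speak to how real controls vary. Alternatives were DESeq2 1.42.0, limma 3.58.1 (voom), DESeq2 size factors, raw library sizes, other filters, each APAP library left out in turn, a table without mitochondrial and ribosomal protein genes, and removal of a trend of fold change with transcript length. The last was chosen after seeing the data.

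The 10 genes and all lists were chosen with earlier results of these data known. All members are named. Of each pathway list, the gene listed first, up to 3 called genes with the smallest p and, in lists of 5 or fewer calls, all calls are named by rule, and other pathway genes were named after their values were seen. Of 12 marker lists of 8 genes each, 1 is not reported here, and the other sums not given in the text are among the closing observations. The 5 genes most like Gpnmb and Spp1 were named by rule. Transcript lengths are those of the principal GENCODE M21 transcript. Promoters of Tyrobp, Fabp5 and Lpl were not used here.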

Additional observations from a re-analysis of the deposited data

How the results depend on the processing

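The counts of genes called higher and lower were 4758 and 3537. Those higher fell to 3097 with a filter of at least 5 CPM in 1 library and to 3111 with the length trend removed, and ranged from 2979 to 5195 when an APAP library was left out. Those lower fell to 2343 with raw library sizes and 1641 with the length trend removed, and ranged from 2022 to 4185. The median log2 fold change of the 10 genes was 2.41, from 2.19 to 2.57 with an APAP library left out, and 3.04 with the length trend removed. Plin2 changed sign, to 0.19 with raw library sizes, 0.0123 without the low-count filter and 0.34 with the length trend removed, and ranged from -0.24 to 0.16 with an APAP library left out. The cause was not tested, beyond the fewer genes or libraries that some alternatives hold. The other 9 genes kept their direction under all 11 alternatives. Pathway genes called higher numbered 32 to 48 and those lower 11 to 22. No paired analysis was possible because the control has 1 library and the columns carry no replicate numbers. The control counts of Spp1 (14) and Gpnmb (72) limit how well their ratios are known.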

Other observations

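Of the 108 pathway genes tested, 15 (13.9%) were at least 1.5 times higher in the first APAP library than in the mean of the other two, against 8.76% of all genes tested, and 10 of these had an APAP mean of at least 10 CPM. They were Mmp12 (2.77 times), Fabp4 (2.36), Lgals1 (2.35), Vat1 (2.0), Fnip2 (1.85), Atp6v0d2 (1.63), Angptl4 (1.62), Cstb (1.59), Cd36 (1.58) and Lat2 (1.51). Mmp12, the macrophage elastase, had 163, 64.9 and 53.0 CPM after APAP and 7.37 CPM in the control. Vat1, a vesicle membrane protein, had 506, 267 and 240 CPM against 169 CPM. Other genes of these lists were level across the APAP libraries, such as Itgax (62.2, 66.2 and 58.5 CPM) and Clec7a (784, 736 and 805 CPM). These are single libraries and no test was made. The lists were chosen with earlier results of these data known, so nothing is read from the comparison with all genes.

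Endothelial cell markers summed to 951, 1241 and 1367 CPM after APAP and 1956 CPM in the control. Most of that control sum was Cdh5, with 1268 CPM in the control and 474, 692 and 748 CPM after APAP. Stab2, Pecam1 and Clec4g were also lower in every APAP library, Kdr, Oit3 and Ptprb were higher, and Lyve1 lay on both sides. Stellate cell markers summed to 43.9 to 54.4 CPM against 55.9 CPM. Within the stellate list, Col1a1 and Col3a1 were higher in every APAP library (Col3a1 at 14.6 to 21.8 CPM against 2.76 CPM). Reln lay on both sides of the control, and the rest of that list was lower in every APAP library. T cell markers summed to 89.7 to 118 CPM against 63.0 CPM, NK cell markers to 57.4 to 71.9 CPM against 66.5 CPM, and conventional dendritic cell markers to 90.6 to 123 CPM against 76.8 CPM. Klrk1 of the NK list had 53.3 CPM in the control and 23.9 to 32.3 CPM after APAP. Batf3 of the dendritic list had 57.3 CPM in the control and 21.1 to 26.4 CPM after APAP. All other markers of these 2 lists were higher in every APAP library than in the control. The neutrophil markers Camp and Ly6g had 0 counts in the control.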
